A study of Mus musculus with 9 samples.

Results

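The 10 genes described here encode proteins that limit signaling from the T cell receptor (TCR), among them *Ptpn6*, the gene of the tyrosine phosphatase SHP-1. They were taken by name, and each name matched exactly 1 of the 55487 genes of the expression table. Their transcripts were read from RNA-seq of splenic CD4+ T cells of wild-type C57BL/6 mice, which the methods of the study describe as female and 6 to 7 weeks old. All 9 libraries share this genotype and tissue and fall into 3 groups of 3. Medium cells were cultured without added antibody. Stimulated cells were exposed for 24 h to antibodies (Abs), at 3 µg/ml against CD3, a part of the TCR complex, and at 2 µg/ml against the costimulatory receptor CD28. TRAIL-treated cells received the same Abs for 24 h plus TRAIL, a cytokine related to tumor necrosis factor, at 10 µg/ml. How long the medium cells were cultured is not given in the sources used here. The sources also do not say whether the 3 libraries of a group came from separate mice or cultures, so the p-values below measure only the spread between libraries.

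TCR signaling starts when the Src family kinase Lck phosphorylates the CD3 chains and ZAP-70, and tyrosine phosphatases set how long these phosphates last. Lck itself carries an activating and an inhibitory tyrosine. The kinase CSK phosphorylates the inhibitory site, the transmembrane adaptor PAG1 holds CSK at the membrane, and the receptor phosphatase CD45, the product of *Ptprc*, removes that phosphate. SHP-1, PTPN22 and PTPN2 can remove activating phosphates from Lck, and the STS proteins encoded by *Ubash3a* and *Ubash3b* bind the ubiquitin ligase CBL, with STS-1 acting as a phosphatase on ZAP-70. Of the 10 genes, 6 encode protein tyrosine phosphatases, 1 a kinase, 1 an adaptor and 2 the STS proteins, so the label of phosphatase does not cover *Csk* and *Pag1*, and CD45 also promotes signaling. RNA-seq shows the level of the transcripts and not the phosphorylation or activity of these proteins.

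All 10 genes are protein-coding and lie at the same GRCm38 locus in the deposited table and in GENCODE M21. *Ptpn6* (ENSMUSG00000004266) spans chr6:124720707-124738714 on the minus strand and shares exon sequence with 1 other gene, the antisense *Gm20531*, which reached at most 0.307 TPM in any library. The other 9 genes share no exon with another gene. Promoter sequences from RefSeq (GRCm38.p6) were found for 8 of the 10 genes, all except *Pag1* and *Ptpn2*. In the 250 bases before the RefSeq start nearest to the 5′ end of the gene, both strands were searched for GGAAGT (the core of sites for ETS factors, which act at many lymphoid promoters), GGGCGG (the GC box), TGANTCA (AP-1) and GGAAAA (the NFAT core). The ETS core was found in 3 of the 8 promoters, compared with 19.7% of 32851 RefSeq promoters cut to the same length. The GC box was in 3 of 8 (32.7% of all), the NFAT core in 3 of 8 (20.4% of all) and the AP-1 site in 0 of 8 (6.7% of all). The promoters with an ETS core are those of *Ptpn6*, *Ptprc* and *Ptpn22*. They are shown 5′ to 3′ on the strand of the gene so that the placing of the matches can be read. They were chosen after the matches were seen, and capitals mark every match to these motifs in either orientation.
*Ptpn6* promoter, chr6:124738710-124738959, minus strand: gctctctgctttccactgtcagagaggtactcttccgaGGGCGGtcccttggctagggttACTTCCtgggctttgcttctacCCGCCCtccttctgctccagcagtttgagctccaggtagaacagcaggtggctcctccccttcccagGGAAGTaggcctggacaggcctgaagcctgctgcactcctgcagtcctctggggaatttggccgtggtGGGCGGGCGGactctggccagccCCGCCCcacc
*Ptprc* promoter, chr1:138175306-138175555, minus strand: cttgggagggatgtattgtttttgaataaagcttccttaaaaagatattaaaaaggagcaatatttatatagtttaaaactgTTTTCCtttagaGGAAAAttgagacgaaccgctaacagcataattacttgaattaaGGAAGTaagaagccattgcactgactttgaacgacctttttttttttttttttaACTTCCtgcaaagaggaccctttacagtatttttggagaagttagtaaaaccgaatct
*Ptpn22* promoter, chr3:103859545-103859794, plus strand: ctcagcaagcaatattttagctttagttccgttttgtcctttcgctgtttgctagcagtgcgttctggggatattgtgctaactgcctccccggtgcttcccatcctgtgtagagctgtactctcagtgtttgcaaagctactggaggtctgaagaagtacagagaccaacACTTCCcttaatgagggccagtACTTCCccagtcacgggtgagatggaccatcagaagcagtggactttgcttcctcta
The *Ptpn6* window holds 5 GC boxes, a pair of which overlap by 2 bases, and its G+C content is 63.2%, whereas the *Ptprc* window holds 0 GC boxes and 2 NFAT cores at a G+C content of 31.6%. A match describes these letters only. Which start site the cells used was not measured.

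Levels are given as TPM, a share of all transcripts in which gene length is divided out and every library has the same total, so that levels can be set side by side between genes. TPM keeps no read totals, and the depth of the libraries is therefore unknown. Groups were compared with limma on log2(TPM + 1) over the 15536 genes that reached 1 TPM in 3 or more libraries, and all 10 genes passed this filter. A gene is said to have risen or fallen at a Benjamini-Hochberg adjusted p below 0.05 over all genes tested, and changes of at least 2-fold are counted separately. The T cell markers, 7 in number, summed to 2886 to 3067 TPM in the medium group, 2784 to 2860 TPM with Abs alone and 2938 to 3189 TPM with Abs and TRAIL. The sum of 8 B cell markers was 2178 to 2247, 160.8 to 176.6 and 910.5 to 1019 TPM in the same order, that of 8 myeloid markers 1321 to 1429, 58.0 to 64.3 and 1044 to 1164 TPM, and that of 6 erythroid markers 1193 to 1446, 14.7 to 24.9 and 329 to 379 TPM. The sum of 2 CD8 T cell markers was 110 to 117.8, 94.2 to 104.6 and 46.9 to 49.4 TPM, lowest with TRAIL, and that of 4 NK cell markers 113 to 137.2, 26.7 to 28.2 and 39.0 to 45.1 TPM, low in both groups given Abs. Single T cell markers went opposite ways under their even sum, with means of 384, 220 and 384 TPM for *Cd4*, 615, 299 and 595 TPM for *Cd3g*, and 392, 839 and 446 TPM for *Cd2*. All of these T, B and myeloid markers were above the floor of the table in all libraries, whereas 3 erythroid markers were at the floor in some stimulated library. The study isolated the cells from spleen with a CD4+ T cell isolation kit. SHP-1, CD45 and STS-1, for example, are also made in B and myeloid cells. The part of B, myeloid, CD8 T and NK cells in the results below was not tested for any of the 10 genes. In bulk RNA fewer cells of a type and less RNA per cell cannot be told apart. Stimulated replicate 1 was the lowest of its group for every gene of the 10 except *Ptpn2*, and its omission is given where it matters.

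In medium the order of levels ran from *Ptprc* (1296 TPM) through *Ptpn6* (555 TPM), *Csk* (324 TPM), *Ptpn22* (137 TPM), *Ptpn2* (95.2 TPM), *Ptpn7* (78.5 TPM), *Pag1* (54.6 TPM), *Ptpn11* (41.1 TPM) and *Ubash3a* (31.6 TPM) down to *Ubash3b* (14.7 TPM). The ranges of the 3 libraries did not overlap between any neighbours in this order. *Ptpn6* was above 98.7% of the genes tested in medium, 97.3% in stimulated and 97.2% in TRAIL-treated cells, and *Ptprc*, *Ptpn6* and *Csk* held the first 3 ranks in every group. In stimulated cells the order after *Csk* was *Ptpn2*, *Ptpn7*, *Ptpn22*, *Ptpn11*, *Ubash3a*, *Pag1* and *Ubash3b*. *Ptpn2* was thus at rank 4 instead of rank 5, *Ptpn22* at rank 6 instead of rank 4 and *Pag1* at rank 9 instead of rank 7. The ranges of *Ptpn7* and *Ptpn22* overlapped, as did those of *Pag1* and *Ubash3b*. In TRAIL-treated cells the order was that of medium, although *Csk* overlapped *Ptpn22*, *Ptpn7* overlapped *Pag1* and *Ptpn11* overlapped *Ubash3a*.

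**Figure D1:**
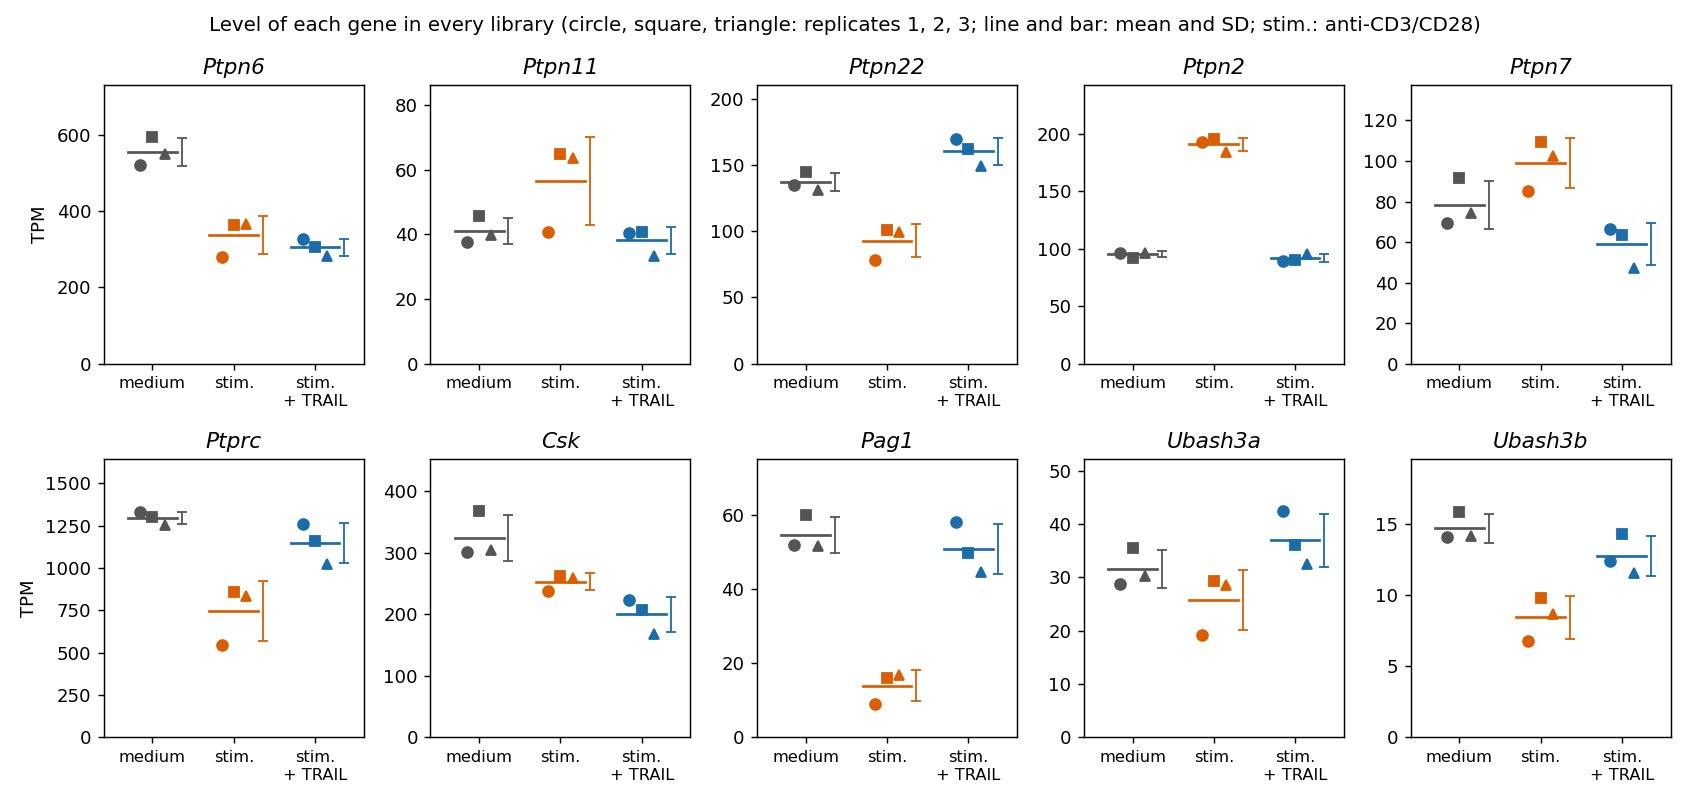
Level in TPM (y axis, from 0) of each of the 10 genes in the medium, stimulated (stim.) and TRAIL-treated (stim. + TRAIL) libraries, with 1 symbol per library and the mean and SD of each group. *Ptpn6* stayed between 282 and 327 TPM with TRAIL while *Ptprc* and *Pag1* were near their medium levels, and *Ptpn2* was high in stimulated cells alone.

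Relative to medium, 6 of the 10 genes fell and 1 rose in stimulated cells (7 of 10 past the threshold), where 68.7% of all genes tested passed, 28.8% as higher and 40.0% as lower. The share that passed was near this background, and the fall of *Csk* depended on single libraries, as given below. Only *Pag1*, which fell, changed by at least 2-fold (background 31.9%, with 12.4% higher and 19.5% lower), and *Ptpn2* stood just short of it, so that the count was 2 without medium replicate 1, medium replicate 3 or stimulated replicate 3. The median log2 fold change was -0.46, beside -0.15 over all genes. The stimulated and medium libraries did not overlap in 7 of the 10 genes, as in 72.6% of all genes (29.9% higher and 42.6% lower). With TRAIL added to the Abs, 5 of the 10 genes were higher and 4 lower than after stimulation alone (9 of 10, background 67.1%, with 33.5% in each direction). At least 2-fold changes were found in *Pag1*, which rose, and *Ptpn2*, which fell (2 of 10, background 30.9%, with 16.6% higher and 14.3% lower), although *Ptpn2* was short of 2-fold under median-of-ratios scaling (-0.95) and quantile normalization (-0.82). The median log2 fold change was 0.19, beside 0.011 over all genes. The TRAIL-treated and stimulated libraries did not overlap in 9 of the 10 genes, as in 70.4% of all genes (35.5% higher and 34.9% lower). Without the filter on low TPM 5 of the 9 calls were left, and *Ptpn11*, *Ptprc*, *Csk* and *Ubash3a* no longer passed. TRAIL-treated cells differed from medium in 2 of the 10 genes, *Ptpn6* and *Csk*, both lower (background 32.6%, with 8.03% higher and 24.6% lower). At an unadjusted p below 0.05 from limma 3 of the 10 passed, as did 6843 of the 15536 genes tested. Without stimulated replicate 1 the count was 4, with *Ptpn22* and *Ptpn7* added. By limma 0 of the 10 genes reached 2-fold in that comparison (background 4.62%, with 2.49% higher and 2.13% lower), and the median was -0.14, beside -0.18 over all genes. TRAIL-treated and medium libraries did not overlap in 4 of the 10 genes, as in 50.6% of all genes (12.4% higher and 38.2% lower). For TRAIL-treated against stimulated cells the share that passed was above the background, and with 10 genes that excess was not tested. These comparisons share libraries, so a gene that was high in stimulated cells is bound to appear in 2 of them.

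*Ptpn6* was lower in all cells that received Abs, with or without TRAIL. It measured 521, 593 and 549 TPM in the medium libraries, 279, 365 and 368 TPM after stimulation and 327, 307 and 282 TPM with TRAIL. All 6 libraries from Ab-treated cells lay below all 3 medium libraries, and the stimulated and TRAIL-treated libraries overlapped. Relative to medium, *Ptpn6* fell by 0.73 on the log2 scale after stimulation (standard error 0.12, adjusted p = 0.000392 from limma) and by 0.86 with TRAIL (standard error 0.12, adjusted p = 0.000787 from limma). Between TRAIL-treated and stimulated cells the log2 fold change was -0.14 (95% confidence interval -0.41 to 0.14, adjusted p = 0.348 from limma), an interval that includes a lower level but not the medium level. Without stimulated replicate 1, the lowest of its group, the same difference was -0.26 with adjusted p = 0.0346 from limma. It was -0.073 without stimulated replicate 2 (adjusted p = 0.665 from limma) and -0.068 without stimulated replicate 3 (adjusted p = 0.691). Under median-of-ratios scaling it was -0.0389 (adjusted p = 0.706), and under quantile normalization -0.0255 (adjusted p = 0.865). The B, myeloid, erythroid and NK cell marker sums were also lower in both groups given Abs than in medium, and their part in the *Ptpn6* difference was not tested.

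*Ptpn11*, which encodes the paralog SHP-2, took a different course at a far lower level. Its values were 37.6, 45.7 and 40.0 TPM in medium, 40.9, 65.0 and 63.7 TPM after stimulation and 40.5, 40.7 and 33.3 TPM with TRAIL. Replicates 2 and 3 of the stimulated group stood above every other library, and replicate 1 lay within the medium range. The stimulated level was 0.43 above medium on the log2 scale, which did not pass (adjusted p = 0.0511 from limma), but it passed without stimulated replicate 1 (0.64, adjusted p = 0.000935 from limma). It also passed with all libraries under median-of-ratios scaling (0.52, adjusted p = 0.00556), quantile normalization (0.49, adjusted p = 0.00649), a pseudocount of 5 (0.39, adjusted p = 0.0493) and a filter of 5 TPM (0.43, adjusted p = 0.0495). The difference did not pass without stimulated replicate 2 (0.31, adjusted p = 0.169 from limma) or stimulated replicate 3 (0.33, adjusted p = 0.165). Nor did it pass without medium replicate 1 (0.36, adjusted p = 0.143), medium replicate 3 (0.41, adjusted p = 0.114) or the filter on low TPM (adjusted p = 0.246). *Ptpn11* fell with TRAIL by 0.53 (standard error 0.17, adjusted p = 0.0208 from limma), a call that was lost without stimulated replicate 2, stimulated replicate 3 or TRAIL-treated replicate 3 (-0.42, -0.43 and -0.44, adjusted p = 0.0773, 0.0774 and 0.0781 from limma).

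The genes that set the inhibitory phosphate of Lck were lower in stimulated than in medium cells, and TRAIL-treated cells differed from stimulated cells in different directions. *Ptprc* was at 1329, 1302 and 1256 TPM in medium, 544, 860 and 836 TPM after stimulation and 1262, 1161 and 1022 TPM with TRAIL. The stimulated libraries were all below the other 6, and the TRAIL-treated range overlapped that of medium. *Ptprc* fell by 0.82 with stimulation (adjusted p = 0.00131 from limma) and rose by 0.64 with TRAIL against stimulated cells (standard error 0.17, adjusted p = 0.00579 from limma). The table gives 1 value per gene, so the CD45 isoforms that T cells exchange during activation are not resolved.

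*Pag1* had the largest fold differences of the 10 genes for stimulated against medium and for TRAIL-treated against stimulated cells. It measured 51.9, 60.1 and 51.7 TPM in medium, 9.08, 16.0 and 16.7 TPM after stimulation and 58.0, 49.6 and 44.7 TPM with TRAIL. The stimulated libraries stood well below all others, at 0.261 of the medium level on the TPM + 1 scale, and the medium and TRAIL-treated libraries overlapped. The log2 fold changes were -1.94 for stimulation (standard error 0.20, adjusted p = 1.2e-05 from limma) and 1.83 for TRAIL-treated against stimulated cells (standard error 0.20, adjusted p = 1.9e-05 from limma), the latter at the 93.5 percentile of all genes tested. The B, myeloid, erythroid and NK cell marker sums were also lowest in stimulated cells, while the CD8 T cell sum was lowest with TRAIL. Their part in the *Pag1* differences was not tested.

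*Csk*, whose product PAG1 anchors, was lower in stimulated than in medium cells and lower still in TRAIL-treated cells. Its libraries gave 301, 367 and 305 TPM in medium, 238, 263 and 258 TPM after stimulation and 223, 208 and 168 TPM with TRAIL. The 3 groups did not overlap, and TRAIL-treated libraries were the lowest. *Csk* fell by 0.35 with stimulation (adjusted p = 0.0278 from limma), by 0.35 with TRAIL against stimulated cells (adjusted p = 0.0295 from limma) and by 0.70 with TRAIL against medium (standard error 0.12, adjusted p = 0.00265 from limma). It was the 1 gene of the 10 past the threshold in the same direction against both other groups, where 10.3% of all genes tested were lower and 4.40% higher than both. Without stimulated replicate 1, *Ptpn6* and *Ptpn7* as lower and *Ptpn22* as higher also passed against both groups. The smaller differences depended on single libraries. That between stimulated and medium cells was lost without medium replicate 2 (-0.26, adjusted p = 0.0948 from limma), stimulated replicate 1 (-0.31, adjusted p = 0.065) or stimulated replicate 3 (-0.37, adjusted p = 0.0545), and without the filter on low TPM (adjusted p = 0.123). That between TRAIL-treated and stimulated cells was lost without TRAIL-treated replicate 3 (-0.23, adjusted p = 0.106 from limma), stimulated replicate 2 (-0.32, adjusted p = 0.0827) or stimulated replicate 3 (-0.33, adjusted p = 0.078), and under quantile normalization (-0.14, adjusted p = 0.253). The sum of the CD8 T cell markers was likewise lowest with TRAIL, and its part in the *Csk* difference was not tested.

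Among the other cytosolic phosphatases, *Ptpn2* and *Ptpn22* moved in opposite directions. *Ptpn2*, whose product TC-PTP also acts on JAK kinases downstream of cytokine receptors, was at 96.8, 92.4 and 96.6 TPM in medium, 193, 196 and 185 TPM after stimulation and 89.5, 90.3 and 95.8 TPM with TRAIL. The stimulated libraries stood alone, and medium and TRAIL-treated libraries overlapped. *Ptpn2* rose by 1.00 on the log2 scale (standard error 0.078, adjusted p = 1.5e-06 from limma) and fell by 1.05 with TRAIL (standard error 0.078, adjusted p = 1.1e-06 from limma).

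*Ptpn22*, which encodes a phosphatase that binds CSK, was at 135, 144 and 131 TPM in medium, 78.4, 101 and 99.3 TPM after stimulation and 170, 162 and 150 TPM with TRAIL. The 3 groups did not overlap, with TRAIL-treated libraries highest. It fell by 0.57 with stimulation (adjusted p = 0.00117 from limma) and rose by 0.79 with TRAIL against stimulated cells (standard error 0.11, adjusted p = 0.000117 from limma). Against medium the TRAIL-treated level differed by 0.23 (95% confidence interval -0.023 to 0.48, adjusted p = 0.147 from limma), which became 0.42 with adjusted p = 0.00356 under median-of-ratios scaling, 0.29 with adjusted p = 0.0264 under quantile normalization, and passed without stimulated replicate 1 at the same fold change (adjusted p = 0.0455).

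*Ptpn7* encodes a phosphatase of the MAP kinases ERK and p38. It ranged from 69.4 to 91.8 TPM in medium, from 85.4 to 109 TPM after stimulation and from 47.3 to 66.3 TPM with TRAIL, so TRAIL-treated libraries lay below both other groups, which overlapped each other. It fell with TRAIL against stimulated cells by 0.75 (standard error 0.16, adjusted p = 0.00183 from limma). Against medium the difference of -0.41 did not pass (adjusted p = 0.0724 from limma), nor did that of 0.34 for stimulation against medium (adjusted p = 0.0821 from limma). The former was -0.26 (adjusted p = 0.245 from limma) without TRAIL-treated replicate 3 and -0.22 (adjusted p = 0.193) under median-of-ratios scaling. Without stimulated replicate 1 both passed, at -0.41 (adjusted p = 0.0449) and 0.44 (adjusted p = 0.034), and the latter also passed under median-of-ratios scaling (0.43, adjusted p = 0.00829) and without medium replicate 2 (0.45, adjusted p = 0.036) or TRAIL-treated replicate 3 (0.34, adjusted p = 0.0473).

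The STS genes were the lowest of the 10 in medium, whereas after stimulation *Pag1* averaged below *Ubash3a*. *Ubash3b*, encoding STS-1, ranged from 14.1 to 15.9 TPM in medium, from 6.79 to 9.84 TPM after stimulation and from 11.6 to 14.3 TPM with TRAIL, and only the stimulated group stood apart. It was lower by a log2 fold change of -0.75 in stimulated than in medium cells, and higher by 0.55 in TRAIL-treated than in stimulated cells (adjusted p = 0.000879 and 0.00555 from limma). *Ubash3a*, encoding STS-2, ranged from 28.8 to 35.6, from 19.3 to 29.3 and from 32.6 to 42.4 TPM in the same order. Its stimulated and medium ranges overlapped, with a difference of -0.30 that did not pass (adjusted p = 0.134 from limma). *Ubash3a* rose with TRAIL against stimulated cells by 0.52 (standard error 0.17, adjusted p = 0.0186 from limma), by 0.34 without stimulated replicate 1, and no longer past the threshold without TRAIL-treated replicate 1 (0.42, adjusted p = 0.0728). Its difference of 0.22 between TRAIL-treated and medium cells (adjusted p = 0.343 from limma) passed at 0.40 under both median-of-ratios scaling and quantile normalization (adjusted p = 0.0383 and 0.0387).

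**Figure D2:**
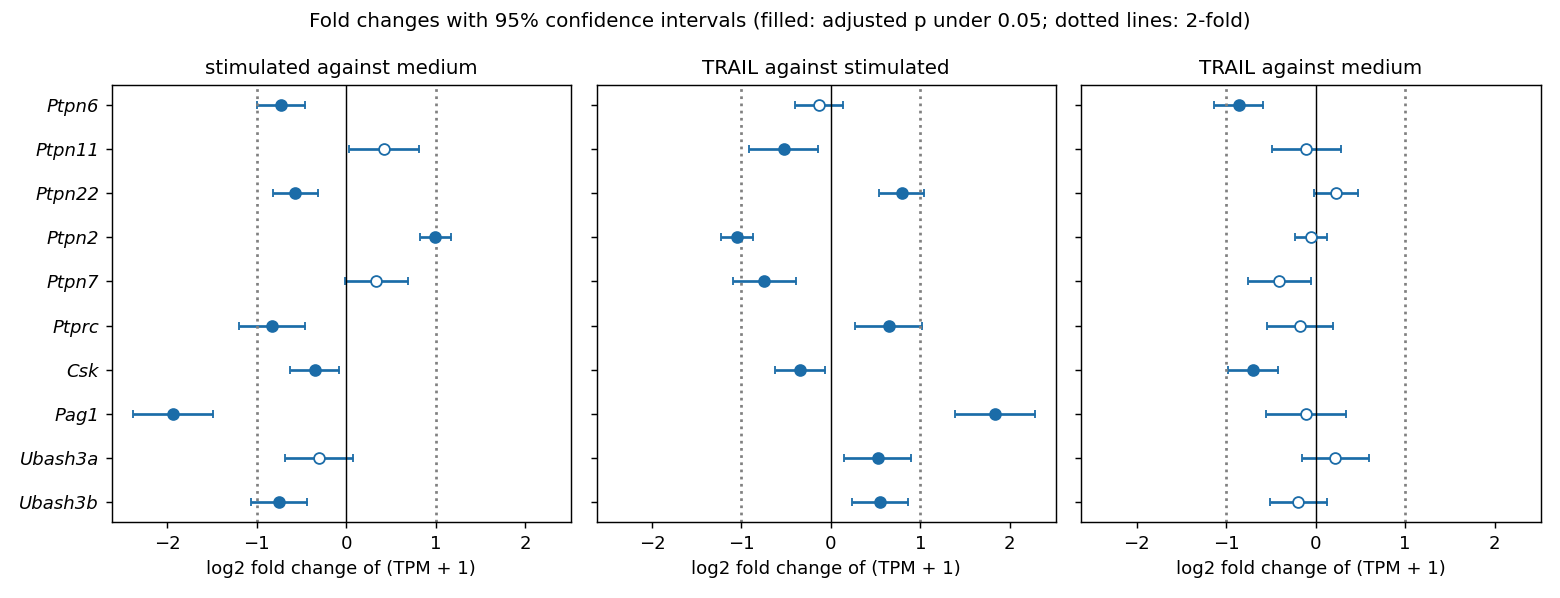
Log2 fold change of TPM + 1 (x axis) with its 95% confidence interval for each of the 10 genes in the 3 comparisons, filled where the adjusted p is below 0.05. *Pag1* (-1.94 and 1.83) and *Ptpn2* (1.00 and -1.05) moved furthest and in opposite directions, and with TRAIL only *Ptpn6* and *Csk* passed the threshold against medium.

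Ratios between transcripts of the same library do not change when a library is multiplied by a single factor, although quantile normalization can change them. These ratios were chosen after the values of the genes were seen, and 12 comparisons were made. An exact permutation test of 3 libraries against 3 cannot go below a two-sided p = 0.1, which is what all comparisons without overlap reached (0.109 after adjustment over the 12). There were 13.5 ± 0.471 *Ptpn6* transcripts per *Ptpn11* transcript in medium (SD, n = 3), 6.08 ± 0.668 after stimulation and 8.02 ± 0.456 with TRAIL. The ratio of *Ptpn6* to *Lck*, the kinase on which SHP-1 acts, was 1.07, 1.04 and 1.05 in medium, 0.778, 0.925 and 0.937 after stimulation and 0.636, 0.618 and 0.679 with TRAIL. No groups overlapped in either ratio, and *Ptpn6* relative to *Lck* was lowest with TRAIL. A ratio within a library does not remove differences in cell makeup. The B and myeloid marker sums differed between groups, and their part in these ratios was not tested. *Lck* itself rose by 0.31 on the log2 scale between stimulated and TRAIL-treated cells (adjusted p = 0.0264 from limma). The ratio of *Csk* to *Lck* was 0.618, 0.642 and 0.585 in medium, 0.663, 0.667 and 0.659 after stimulation and 0.435, 0.418 and 0.406 with TRAIL, so it was lowest with TRAIL and highest after stimulation alone. *Ptpn6* relative to *Ptprc*, both of which are made by T, B and myeloid cells, overlapped between medium (0.428 ± 0.0327) and stimulated cells (0.459 ± 0.0477, SD, n = 3; exact permutation p = 0.5). It was 0.266 ± 0.00846 with TRAIL (SD, n = 3), below all other libraries.

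**Figure D3:**
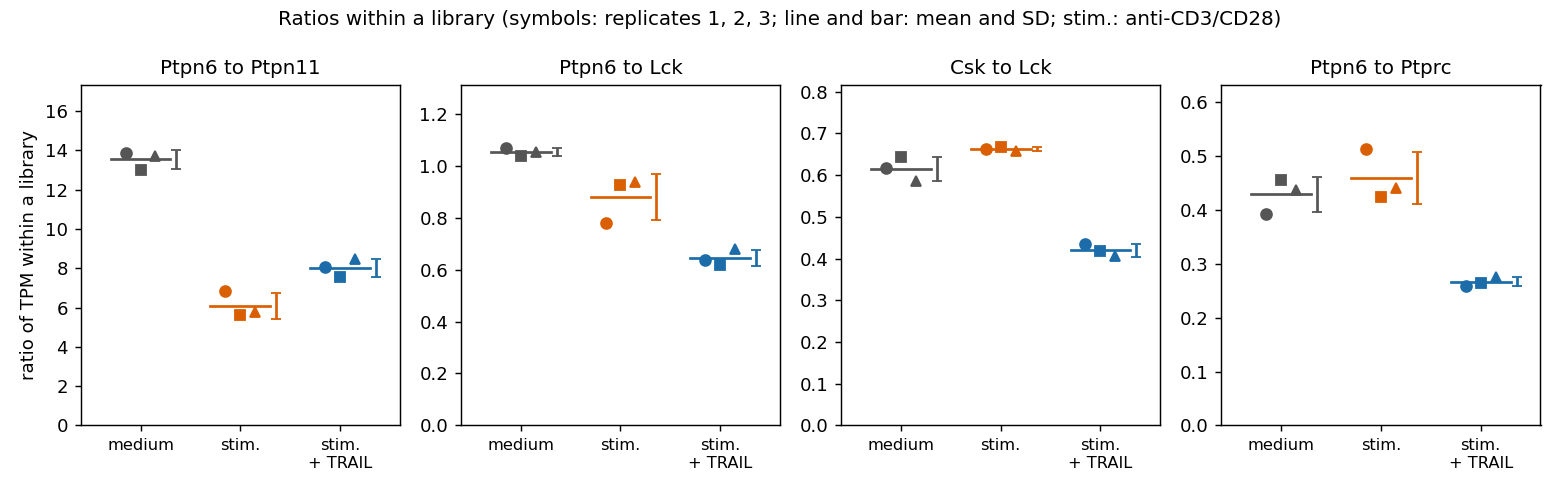
Ratios of TPM between 2 genes within each library (y axis, from 0), with 1 symbol per library and the mean and SD of each group. *Ptpn6* to *Lck*, *Csk* to *Lck* and *Ptpn6* to *Ptprc* were lowest in the 3 TRAIL-treated libraries, and *Ptpn6* to *Ptpn11* was lowest in the stimulated ones.

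Other genes of the pathway were read in the same fit. Their counts for TRAIL-treated against stimulated cells stand beside 67.1% of all genes tested that passed, 33.5% in each direction, and the lists were not tested against each other. Of 19 activating genes near the TCR, 3 rose and 9 fell with stimulation (28.8% and 40.0% of all genes), and 12 rose and 2 fell with TRAIL against stimulated cells (median 0.46, beside 0.011 over all genes). The largest rises with TRAIL were in *Grap2*, an adaptor that links LAT to SLP-76 (83.3 to 270 TPM, log2 fold change 1.75, adjusted p = 9.2e-05 from limma), and *Rasgrp1*, an activator of Ras (63.1 to 194 TPM, 1.62, adjusted p = 2.0e-06). The falls were in *Zap70* (189 to 131 TPM, -0.53, adjusted p = 0.00349) and the adaptor gene *Grb2* (155 to 112 TPM, -0.45, adjusted p = 0.00849). Of 15 other inhibitors of TCR signaling, 14 were tested, and 8 rose and 5 fell with TRAIL against stimulated cells (median 0.74). *Dgka*, whose kinase removes diacylglycerol, rose from 234 to 918 TPM (1.97, adjusted p = 2.4e-07 from limma) and *Sit1*, an adaptor that binds SHP-2, from 11.4 to 47.6 TPM (1.97, adjusted p = 5.3e-07). The dual-specificity phosphatase gene *Dusp22* fell by 1.52 (15.5 to 4.81 TPM, adjusted p = 3.0e-05) and *Cblb*, encoding a ubiquitin ligase, by 1.40 (197 to 70.9 TPM, adjusted p = 0.000346).

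Inhibitory receptors that carry ITIM-type motifs, the docking sites of SHP-1 and SHP-2, were read as the next list. All 15 were tested, and 11 rose and 2 fell with TRAIL against stimulated cells (median 1.59), with 12 changed by at least 2-fold (30.9% of all genes, with 16.6% higher and 14.3% lower). *Cd5* and *Pdcd1*, the gene of PD-1, did not pass (0.00050 and 0.091). *Cd300a* (0.456 to 15.2 TPM, log2 fold change 3.48, adjusted p = 4.1e-09 from limma) and *Lair1* (1.36 to 20.6 TPM, 3.23, adjusted p = 2.9e-07) rose most. *Tigit* fell by 2.02 (93.7 to 22.3 TPM, adjusted p = 4.2e-08) and *Lilrb4a* by 1.10 (182 to 84.0 TPM, adjusted p = 5.6e-06). Several of these receptors, such as CD22, CD72, CD300A and SIRPα, are known from B or myeloid cells, whose marker sums rose in the same comparison, and their part in the rises was not tested. Of 29 other classical protein tyrosine phosphatase genes, 18 were tested, and 6 rose and 7 fell with TRAIL against stimulated cells (median -0.22). *Ptprm* (0.0858 to 6.24 TPM, 2.74, adjusted p = 3.0e-08 from limma) and *Ptprj*, encoding CD148 (10.3 to 29.1 TPM, 1.46, adjusted p = 0.000185), rose most. The neuronal phosphatase gene *Ptpn5* fell by 1.96 (9.61 to 1.72 TPM, adjusted p = 2.9e-07) and *Ptpn3* by 1.87 (8.55 to 1.56 TPM, adjusted p = 2.0e-05).

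**Figure D4:**
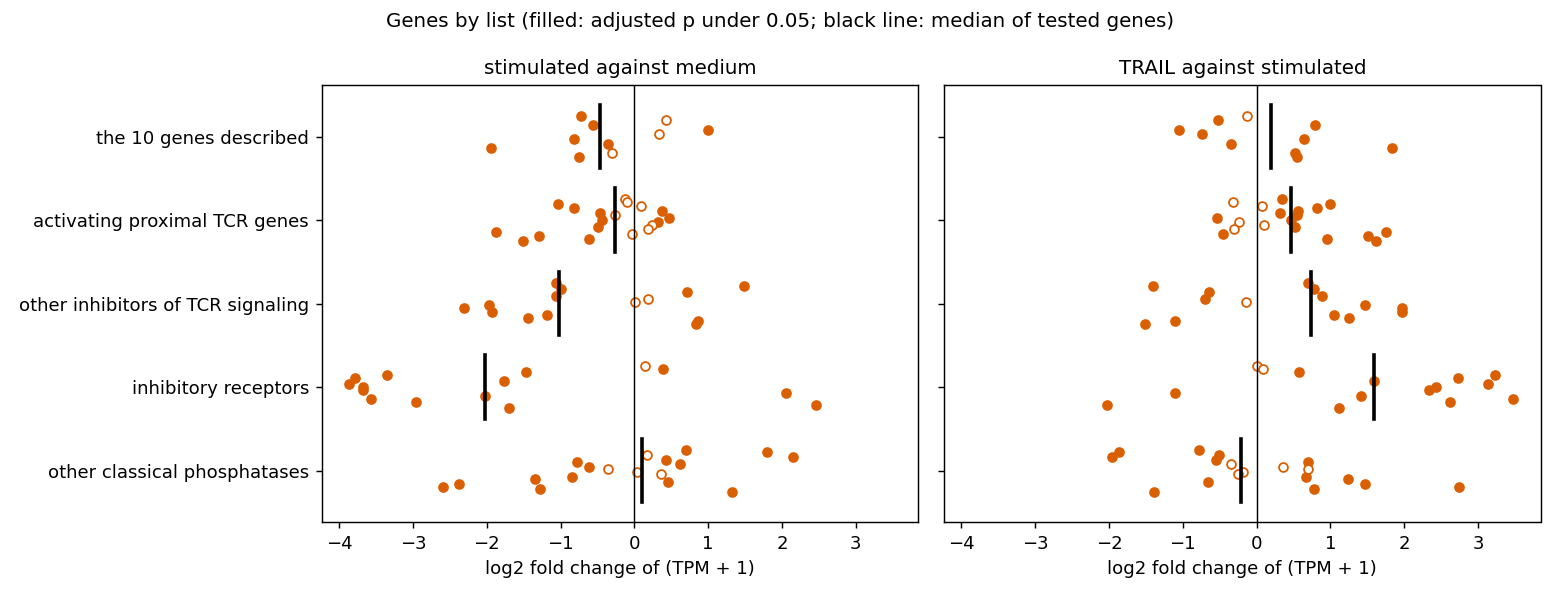
Log2 fold change of TPM + 1 (x axis) of each tested gene in the 10 genes described and in 4 further lists (rows), for stimulated against medium and TRAIL-treated against stimulated cells, filled where the adjusted p is below 0.05 and with the median as a black line. The inhibitory receptors had a median of -2.02 for stimulation and 1.59 for TRAIL, and the 10 genes lay between -1.94 and 1.83.

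The profile of *Ptpn6* over the 9 libraries was compared with 9587 genes of at least 10 TPM on average, as a description. The highest Pearson correlations of log2(TPM + 1) were with *Ddx47* (0.993), *Snap29* (0.990), *Pou2f2* (0.988), *Ogt* (0.988) and *Zbtb14* (0.987). Each of these was highest in medium and similar in the other groups, as in *Ogt* with means of 310, 171 and 153 TPM and *Pou2f2* with means of 62.8, 35.9 and 34.4 TPM. The 9 points fall into 3 groups and are not independent.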

How the data were processed

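The mRNA libraries of 9 samples, in 3 groups of 3 set by the sample labels, was analysed. The authors trimmed reads with Trimmomatic 0.36 and aligned them with HISAT2 2.1.0, and the submitters' processing notes also name SAMtools 1.2, StringTie 2.1.2 and DESeq2. The build is GRCm38 in the methods of the study, which the loci of the table match, and GRCh38 in the notes. The deposited values are TPM per gene, each library summing to 1000003, with 0.0001 as the common floor. The program behind them, the annotation release and the strand setting are not given in the sources used here. Depth is unknown, and precision rests on 3 libraries per group.

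All later values were computed from TPM in R 4.3.3 with limma 3.58.1 (lmFit, eBayes with trend, log2(TPM + 1), 15536 genes, 1 fit of all libraries without a block) and Python 3.11.15. limma was tested on simulated data. Count models of the study could not be used on TPM. Named genes were all 10 genes, *Lck* and *Zap70*, up to 2 extremes per direction in each list for TRAIL-treated against stimulated cells, and the 5 genes most like *Ptpn6*. *Cd4*, *Cd3g*, *Cd2*, *Cd5* and *Pdcd1* were named after their values were seen. The genes and lists were chosen with earlier results of these data known. Correlations of deviations between same-numbered libraries of different groups ran from -0.31 to 0.29, so numbers were not treated as pairs. Whether same-numbered libraries share mice or cultures remains unknown. Pseudocount, filter, scaling, trend, libraries in the fit, block and fold limit were varied, and each library was left out.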

Additional observations from a re-analysis of the deposited data

How the results depend on the processing

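Median-of-ratios scaling and quantile normalization shifted the log2 fold change of the median gene by 0.082 and 0.19 for stimulated against medium, 0.083 and -0.061 for TRAIL-treated against stimulated, and 0.17 and 0.14 for TRAIL-treated against medium cells. The share of higher genes among all those changed at least 2-fold was 38.8% for stimulated against medium cells and 52.1% under quantile normalization. It was 53.9% for TRAIL-treated against medium cells, and 74.2% and 70.6% under these scalings. In that last comparison the small differences of *Ptpn11* (0.081 and 0.051), *Ptpn2* (0.14 and 0.064) and *Pag1* (0.080 and 0.056), and that of *Ptprc* under median-of-ratios scaling (0.011), turned positive, all without passing the threshold, and the genes past it became 4 of 10 instead of 2 under both. For stimulation 9 and 8 genes passed under these scalings, respectively, instead of 7. Genes of the 10 changed at least 2-fold became 2 instead of 1 for stimulation under both scalings and with a pseudocount of 0.1, and 1 instead of 2 with TRAIL against stimulated cells under both scalings. With a limit of 0.5 on the log2 scale they were 6, 8 and 2 of 10 in the 3 comparisons. The share of all genes at this limit was not computed, so these counts cannot be set beside a background. Without the filter on low TPM 5 instead of 9 genes passed for TRAIL-treated against stimulated cells, where *Ptpn11*, *Ptprc*, *Csk* and *Ubash3a* were lost. When single libraries were left out, the genes changed at least 2-fold by stimulation were 1 to 2, and the genes past the threshold were 6 to 8 for stimulation, 7 to 10 for TRAIL-treated against stimulated and 2 to 4 for TRAIL-treated against medium cells, and the *Ptpn6* difference between TRAIL-treated and stimulated cells was -0.26 to -0.068. The replicate block, a term for the replicate number, left 8, 9 and 2 genes past the threshold in the 3 comparisons and 1, 2 and 0 changed at least 2-fold, with *Ptpn11* the gene added for stimulation (adjusted p = 0.0449 from limma). Only 3 of 9 same-numbered pairs had a correlation above 0.1, which does not settle whether the numbers pair the samples. The ratios within a library kept their direction in all 72 values with a library left out. Where groups do not overlap, leaving out a library cannot turn the direction, so these values add nothing there. Of 540 refitted fold changes of the 10 genes, 500 kept their direction and their side of the threshold. Of the others, 7 turned direction, 17 passed anew and 16 no longer passed. Filters, trend, a fit of only the 2 groups, the replicate block and omission of a library outside the comparison leave a fold change as it is. Direction could not change in those refits, so the total is no measure of stability. Apart from the scalings, the causes were not tested. Depth is unknown and could not be weighed.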
